A study of Mus musculus with 11 samples.

Results

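The genes described here are 10 genes of fat cells, Adipoq, Lep, Retn, Cfd, Plin1, Cidec, Fabp4, Lpl, Ucp1 and Car3, measured in whole mouse kidney and taken from 25677 genes in the count table. They were chosen by symbol and picked for their large spread between kidneys of the same group, so that spread is described here and not tested. All kidneys were from female mice aged 21 weeks, and each mouse gave 1 library. The group Ctr held 3 untreated C57BL/6J mice (C57B6 in the labels), Lpr held 4 untreated MRL/lpr mice, and DNase held 4 MRL/lpr mice that received an intraperitoneal injection of DNase I each day during the last weeks. MRL/lpr mice carry a Fas mutation and spontaneously acquire a nephritis like that of lupus. DNase I digests extracellular DNA. Strain and disease cannot be told apart in any comparison with Ctr. The sources used here do not say how fat around the kidney was removed, and the part of adipose tissue left on the organ in these values was not tested.

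Adipocytes store triglyceride in a lipid droplet, take up fatty acids and secrete hormones. White adipocytes hold 1 large droplet and serve as the energy store, while brown adipocytes burn fatty acids for heat through Ucp1. A fat pad surrounds the mouse kidney and can hold both kinds. Fabp4 is also known from capillary endothelium, and Lpl is made by many tissues besides fat.

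In each group some kidneys held higher levels of most of these genes and others held lower levels. By share of counts the highest kidneys were in Ctr and Lpr, and DNase 2, the highest of DNase, ranked 5. The 10 genes together took 0.256% of the counts in Ctr 3, 0.225% in Lpr 3, 0.194% in Lpr 4 and 0.133% in Ctr 1. They took 0.109% in DNase 2, 0.0779% in DNase 4, 0.0648% in DNase 1, 0.0558% in Lpr 1, 0.0531% in Ctr 2, 0.0527% in DNase 3 and 0.0481% in Lpr 2. Lpl made up most of this share in the kidneys with the least. Without Lpl the other 9 genes took 0.00395% in Lpr 1, the lowest, and 0.172% in Lpr 3, the highest. Libraries held between 33469858 and 38460873 counts, so that 3 counts, used here as the floor of detection, corresponded to 0.078 to 0.0896 CPM before TMM scaling, CPM being the count scaled to library size. The floor covers counting error only. Lpr 3 stood apart from the other libraries in gene length, its log2 counts changing by -0.39 for each doubling of length, against -0.04 to 0.08 in the other 10. Kidney marker genes were abundant in every library, with a summed level of 12830 to 29400 CPM over 11 genes. Kap alone ran from 832.6 CPM in Lpr 2 to 18760 CPM in Lpr 3, the kidneys with the lowest and highest sum. In Lpr 3, Slc34a1, Lrp2 and Cubn were at their lowest, 2076, 1547 and 200.8 CPM, and Aqp2 at its highest, 853.1 CPM. The sum therefore does not order the libraries by kidney RNA.

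The members lie on several chromosomes, and in the GENCODE annotation of mm10 none of them overlapped another annotated gene. Adipoq lies at chr16:23146536-23158028 on the plus strand, Lep at chr6:29060220-29073877 on the plus strand and Retn at chr8:3655770-3660110 on the plus strand. Cfd lies at chr10:79890853-79892655 on the plus strand, Plin1 at chr7:79720218-79732903 on the minus strand and Cidec at chr6:113424634-113435760 on the minus strand. Fabp4 lies at chr3:10204088-10208576 on the minus strand and Lpl at chr8:68880491-68907448 on the plus strand. Ucp1 lies at chr8:83290352-83298452 and Car3 at chr3:14863512-14872523, both on the plus strand. Promoter windows from RefSeq on GRCm38.p6, with 250 bases before each start and 50 after it, were matched for 7 of the 10 genes and gave 8 windows, since Cidec has 2 starts. Fabp4, Lpl and Car3 had no window. The windows were searched on both strands for TTGCNNAA, a form of the site bound by C/EBP factors, which drive adipocyte differentiation. It occurred in 3 of the 8 windows, those of Lep, Plin1 and the second Cidec start, and in 10.8% of 32851 mouse promoter windows of the same length. The DR1 direct repeat, bound by PPAR and RXR receptors and searched on both strands, occurred in 0 of the 8 and in 0.381% of all windows. The TATA box letters TATAAA on the strand of the gene occurred in 0 of the 8 and in 8.32% of all. A match is a description of the letters only.

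The 250 bases before the start are shown for the 3 windows with a match, and for Adipoq, the most specific adipocyte hormone among the members, which had none. Capitals mark TTGCNNAA, which lay 55 bases before the start in Lep, where it reads the same on both strands, 187 and 58 bases before it in Plin1, and 198 bases before the second start of Cidec. The windows are chr6:29059971-29060220 on the plus strand for Lep, chr7:79732777-79733026 on the minus strand for Plin1, chr6:113434765-113435014 on the minus strand for Cidec and chr16:23146286-23146535 on the plus strand for Adipoq.
Lep: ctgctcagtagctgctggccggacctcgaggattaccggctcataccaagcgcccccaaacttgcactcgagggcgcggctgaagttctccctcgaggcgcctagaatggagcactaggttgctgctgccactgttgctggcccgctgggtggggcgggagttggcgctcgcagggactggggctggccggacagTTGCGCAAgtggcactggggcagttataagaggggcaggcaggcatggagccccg
Plin1: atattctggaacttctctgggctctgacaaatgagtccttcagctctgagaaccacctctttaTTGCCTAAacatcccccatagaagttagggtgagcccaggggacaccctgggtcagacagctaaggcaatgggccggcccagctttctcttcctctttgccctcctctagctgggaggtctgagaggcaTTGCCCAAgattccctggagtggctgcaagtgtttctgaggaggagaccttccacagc
Cidec: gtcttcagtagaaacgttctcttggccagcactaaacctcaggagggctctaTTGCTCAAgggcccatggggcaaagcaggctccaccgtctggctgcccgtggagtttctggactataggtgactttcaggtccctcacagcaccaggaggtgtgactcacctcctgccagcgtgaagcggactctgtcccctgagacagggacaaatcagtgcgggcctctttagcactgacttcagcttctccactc
Adipoq: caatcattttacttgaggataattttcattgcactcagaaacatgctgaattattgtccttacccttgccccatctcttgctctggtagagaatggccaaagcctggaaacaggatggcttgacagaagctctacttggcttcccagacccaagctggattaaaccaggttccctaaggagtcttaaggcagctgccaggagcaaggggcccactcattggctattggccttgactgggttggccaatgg

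Among the secreted products, Adipoq encodes adiponectin, a hormone that raises insulin sensitivity. Adipoq was measured at 41.9, 3.45 and 73.5 CPM in Ctr 1 to 3, at 0.9, 1.88, 73.5 and 60.1 CPM in Lpr 1 to 4, and at 0.276, 17.9, 1.61 and 9.67 CPM in DNase 1 to 4. The highest kidney exceeded the lowest by 21.3-fold in Ctr, 81.7-fold in Lpr and 64.9-fold in DNase. The ranges of the 3 groups overlapped, and Ctr 3 and Lpr 3 were at the same level although they differed in strain and disease. Retn encodes resistin, a hormone of mouse fat, and read 26.9, 1.37 and 37.1 CPM in Ctr, 0.113, 0.730, 66.7 and 35.5 CPM in Lpr, and 0.0827, 12.6, 1.05 and 8.38 CPM in DNase. Its fold between the highest and lowest kidney was 27.1 in Ctr and 593 in Lpr, where the lowest kidney held 4 counts. In DNase it was 152, with an exact 95% counting interval of 51.8 to 742 because the lowest kidney held 3 counts.

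Cfd encodes adipsin, the protease that cleaves complement factor B, and had the highest FPKM of the members in Ctr 1, Ctr 3, Lpr 3 and Lpr 4, FPKM being a level per gene length. It read 230, 20.4 and 590.3 CPM in Ctr, 4.64, 14.1, 839.2 and 351.5 CPM in Lpr, and 1.77, 130.4, 9.51 and 58.0 CPM in DNase. The fold between highest and lowest was 28.9 in Ctr, 181 in Lpr and 73.9 in DNase, and the kidneys at the top were those with the highest Adipoq. Lep encodes leptin, the hormone that signals the size of the fat store, and was near the floor. Its counts were 71, 5 and 5 in Ctr, 0, 0, 40 and 95 in Lpr, and 0, 8, 0 and 3 in DNase. Lep was the exception among the members in Ctr 3, where it was as low as in Ctr 2 while the other 9 genes were at their highest of that group. The fold was 12.7 in Ctr, at least 32.0 in Lpr and at least 2.63 in DNase, taking 3 counts for a kidney without any.

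**Figure D1:**
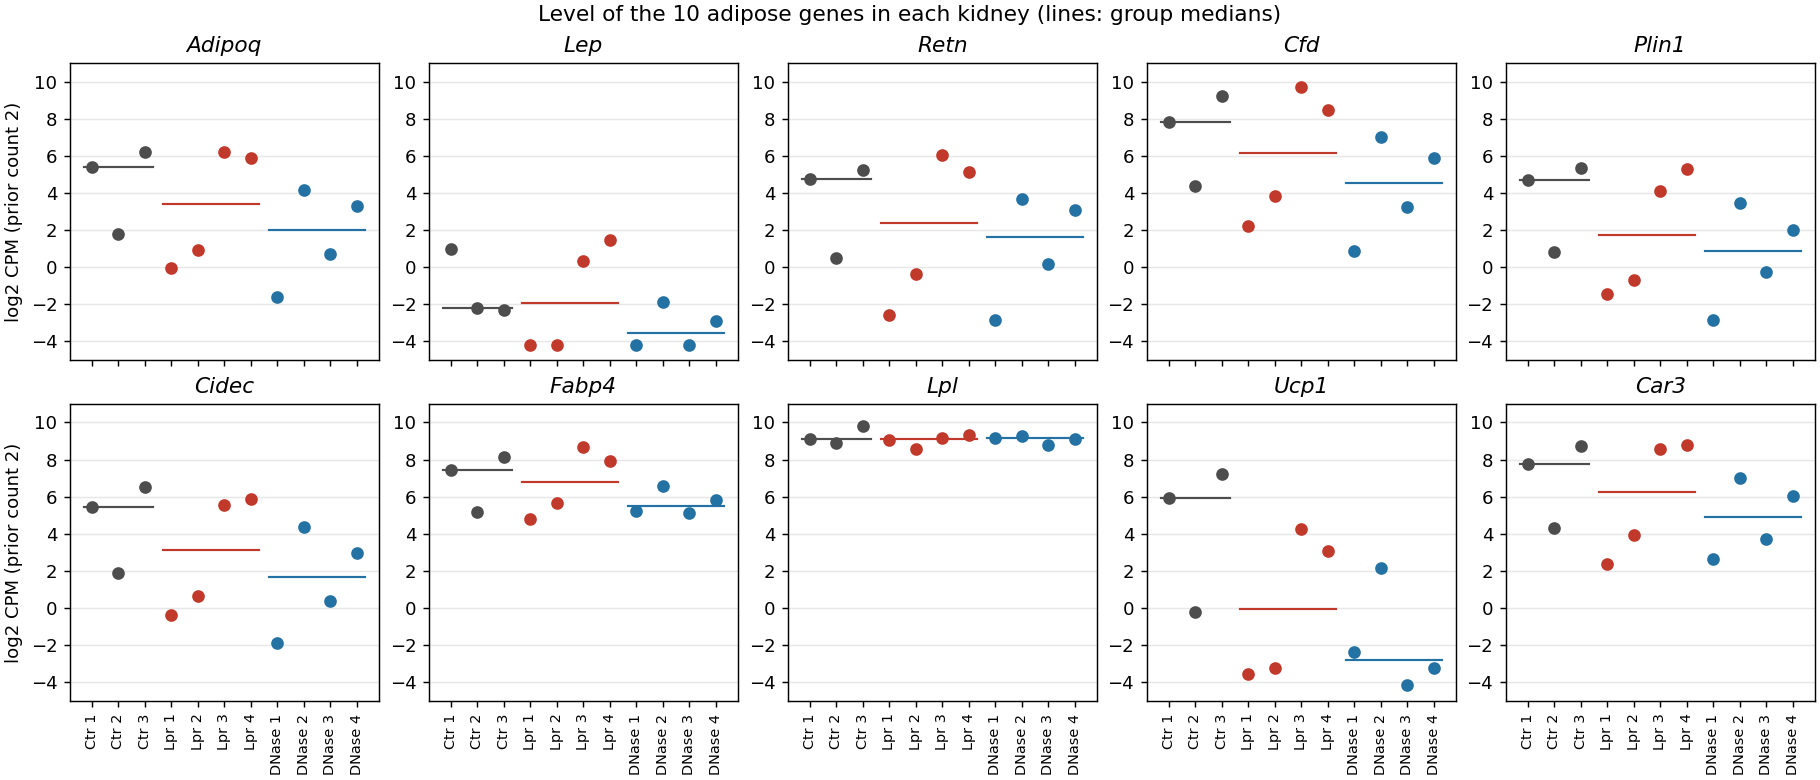
Level of each gene in each of the 11 kidneys in log2 CPM with a prior count of 2, 1 point per kidney, with a line at the median of each group. Points spread over several log2 units within each group for 8 genes, less for Fabp4 and hardly for Lpl, which stayed between 381.9 and 910.3 CPM.

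The lipid droplet genes had the kidneys of Ctr and DNase in the order of Adipoq, and in Lpr both were higher in Lpr 4 than in Lpr 3, unlike Adipoq. Plin1 encodes perilipin 1, which coats the droplet and controls access of lipases, and read 26.4, 1.69 and 40.6 CPM in Ctr, 0.309, 0.574, 17.1 and 39.2 CPM in Lpr, and 0.0827, 10.9, 0.778 and 3.99 CPM in DNase. Cidec promotes fusion of droplets into 1 large droplet and read 43.3, 3.70 and 91.0 CPM in Ctr, 0.703, 1.54, 46.9 and 57.7 CPM in Lpr, and 0.221, 20.2, 1.26 and 7.69 CPM in DNase. The fold between the highest and lowest kidney of Cidec was 24.6 in Ctr, 82.1 in Lpr and 91.8 in DNase. For Plin1 it was 24.0 in Ctr and 127 in Lpr, and 132 in DNase with an exact 95% counting interval of 44.8 to 641. Car3, a carbonic anhydrase that is abundant in adipocytes and muscle, read 214.5, 19.9 and 428.2 CPM in Ctr, 5.06, 15.4, 387.3 and 434.1 CPM in Lpr, and 6.20, 127.5, 13.3 and 65.3 CPM in DNase. Its folds were 21.6, 85.8 and 20.6 in the same order of groups.

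The fatty acid genes differed from the rest. Fabp4, which carries fatty acids in the cytoplasm, read 171.6, 36.7 and 283.7 CPM in Ctr, 28.1, 49.8, 414.5 and 242.6 CPM in Lpr, and 37.0, 96.9, 34.7 and 56.9 CPM in DNase. It never fell below 28.1 CPM, and its folds were 7.73 in Ctr, 14.8 in Lpr and 2.80 in DNase. Lpl, the lipase that releases fatty acids from circulating triglyceride, read 542.9, 479.4 and 910.3 CPM in Ctr, 523.4, 381.9, 574.5 and 650.2 CPM in Lpr, and 576.1, 629.2, 443.7 and 560 CPM in DNase. Its folds were 1.90, 1.70 and 1.42, and so Lpl did not show the spread for which the genes were picked. In a straight line of CPM on Adipoq CPM over the 11 kidneys, Lpl had an intercept of 488.8 ± 42.0 CPM (SE) and Fabp4 one of 25.3 ± 14.5 CPM (SE). Lpl thus was high in kidneys with almost no Adipoq.

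Ucp1, the mitochondrial carrier that uncouples respiration and marks brown adipocytes, had the largest spread. It read 61.3, 0.798 and 148.9 CPM in Ctr, 0.0281, 0.0522, 18.9 and 8.36 CPM in Lpr, and 0.138, 4.37, 0 and 0.0514 CPM in DNase. These values correspond to 2285, 25 and 4968 counts in Ctr, 1, 2, 630 and 294 counts in Lpr, and 5, 161, 0 and 2 counts in DNase. The fold was 187 in Ctr, 674 in Lpr with an exact 95% counting interval of 120.5 to 26650, and at least 58.1 in DNase. The 2 highest kidneys for Ucp1 were both Ctr kidneys, whereas for Adipoq the highest kidneys of Ctr and Lpr were level.

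Over 16500 genes, the pooled SD of log2 CPM between kidneys of a group had a median of 0.335. Ucp1 ranked 1 in this spread with an SD of 3.64, Retn ranked 2, Cfd 4, Plin1 7, Cidec 8, Adipoq 11, Car3 14 and Lep 28. Fabp4 ranked 146 with an SD of 1.43, and Lpl ranked 7984 with an SD of 0.34, close to the median gene. These ranks restate the choice of the genes. The group explained 10.0% to 38.8% of the variance of a member, against a median of 26.8% over all genes ranked. Only Ucp1 lay above that median.

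**Figure D2:**
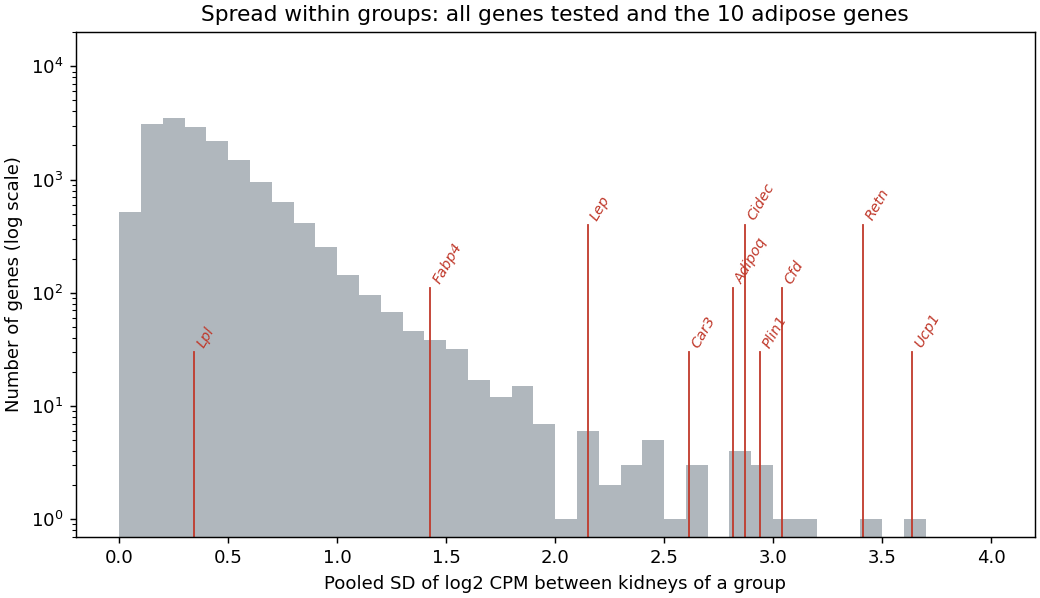
Number of genes (log scale) by their pooled SD of log2 CPM between kidneys of a group, with red lines at the 10 adipose genes. Lpl lies near the peak at an SD of 0.34 and Ucp1 at the end of the range with 3.64.

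The genes followed each other over the kidneys. Ctr 1 and Ctr 3 exceeded Ctr 2 in 9 of 10 genes, with Lep as the exception. Lpr 3 and Lpr 4 exceeded Lpr 1 and Lpr 2 in 10 of 10. DNase 2 was the highest DNase kidney in 10 of 10, and DNase 2 and DNase 4 exceeded DNase 1 and DNase 3 in 8 of 10, with Lpl and Ucp1 as the exceptions. Pearson's r of log2 CPM between 2 members over the 11 kidneys had a median of 0.881 over 45 pairs, with a lowest value of 0.376, and for the 36 pairs without Lpl it ran from 0.774 to 0.996. The kidneys share a group structure and a library each, so r is a description. The r of each gene with the mean of the other 9 was 0.988 for Adipoq, Cidec and Car3, 0.981 for Cfd and Plin1, 0.968 for Retn, 0.942 for Fabp4, 0.877 for Ucp1, 0.839 for Lep and 0.624 for Lpl. In bulk tissue, fewer cells of a type and less RNA per cell cannot be told apart.

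Ratios of FPKM showed which genes varied little against Adipoq. Cidec stood at 0.448 to 0.869 of Adipoq in all 11 kidneys and Cfd at 6.89 to 15.3 times Adipoq, although Adipoq itself ran from 0.233 to 58.7 FPKM. Plin1 stood at 0.139 to 0.389 of Adipoq and Retn at 0.120 to 0.868. Cidec was not fully constant, at 0.725, 0.754 and 0.869 in Ctr and 0.448 to 0.674 in Lpr, with DNase 2 at 0.794. The lowest ratios of Cidec and Plin1 and the highest of Cfd were in Lpr 3, the library that stood apart in gene length. Car3 ranged from 4.10 to 18.0, Fabp4 from 5.33 to 185 and Lpl from 2.38 to 636, the highest ratios being in kidneys with little Adipoq. The ratio of Ucp1 to Adipoq did not stay constant. It was 1.1, 0.174 and 1.52 in Ctr, 0.0234, 0.0208, 0.193 and 0.104 in Lpr, and 0.375, 0.183, 0 and 0.00399 in DNase. Ctr 1, Ctr 3, Lpr 3 and Lpr 4 had the most Adipoq, and Ucp1 was above Adipoq in both of these Ctr kidneys and below it in both Lpr kidneys. The ratio in DNase 1 rests on 5 counts of Ucp1 and 10 of Adipoq. Lep also varied against Adipoq, from 0.000771 in Ctr 3 to 0.0172 in Ctr 1, both with high Adipoq, and was 0.00619 in Lpr 3 and 0.0170 in Lpr 4.

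**Figure D3:**
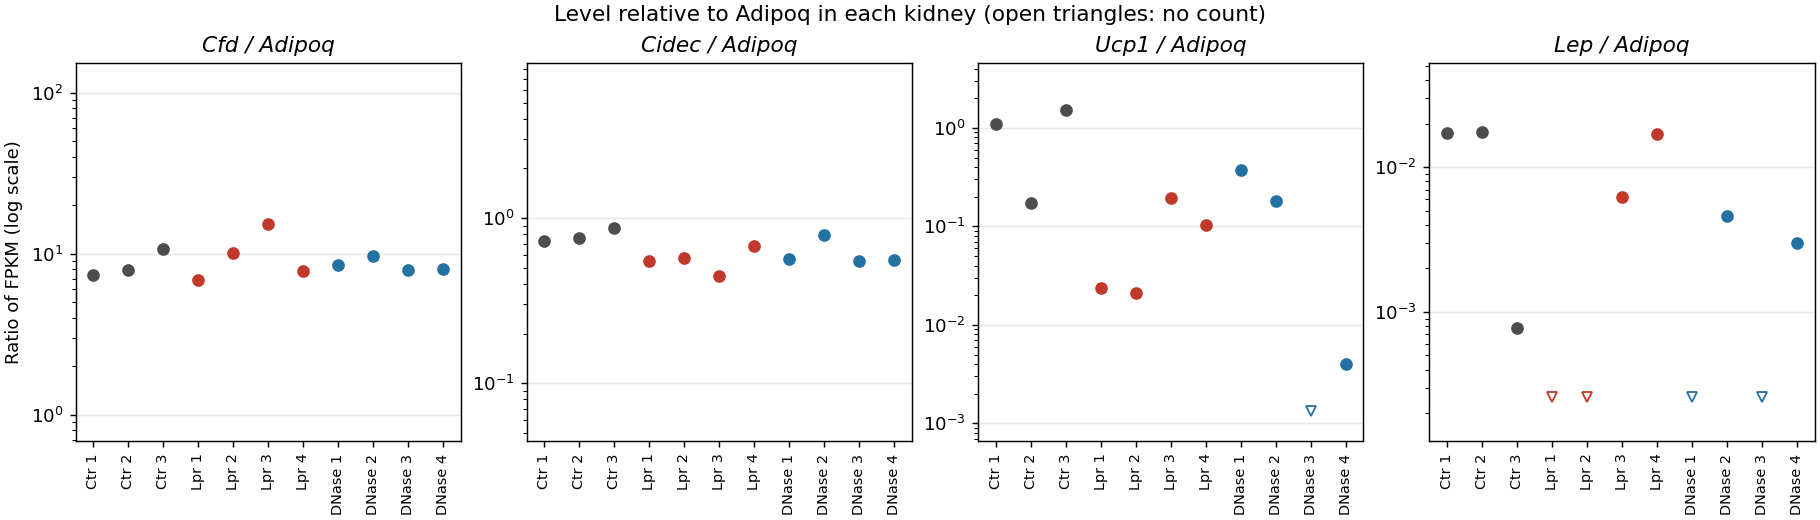
Ratio of the FPKM of Cfd, Cidec, Ucp1 and Lep to that of Adipoq in each kidney (log scale), with open triangles where the gene had no count. Cfd and Cidec stay within a narrow band, whereas Ucp1 runs from 1.52 in Ctr 3 to 0.00399 in DNase 4 and 0 in DNase 3.

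Other genes of brown fat were read as ratios to Adipoq or as counts. Cidea, a droplet protein of brown adipocytes, stood at 0.504, 0.539 and 0.513 of Adipoq in Ctr 1 to 3 and at 0.232, 0.0588, 0.278 and 0.323 in Lpr 1 to 4. In DNase it was 0.106, 0.275, 0 and 0.0141, so that no DNase or Lpr kidney reached the ratio of a Ctr kidney. Cidea held only 7 and 4 counts in Lpr 1 and Lpr 2, and 1, 0 and 5 in DNase 1, 3 and 4. The share of all genes with such a separation of ratios was not computed. Several other genes of the brown fat list had their highest ratio in DNase 1, where Adipoq held 10 counts. Otop1, a proton channel found in brown fat, had 55, 0 and 188 counts in Ctr, 0, 0, 18 and 18 in Lpr, and 0, 12, 0 and 0 in DNase. Elovl3, an enzyme that elongates fatty acids in brown fat, had 163, 3 and 144 counts in Ctr, 5, 3, 30 and 18 in Lpr, and 1, 13, 1 and 2 in DNase. By level its 2 highest kidneys were Ctr 1 and Ctr 3, as for Ucp1. Its ratio to Adipoq was 0.0651, 0.0173 and 0.0366 in Ctr but 0.0975 in Lpr 1, so by ratio it was not highest in Ctr.

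Genes outside the 10 were ranked by Pearson's r over the 11 kidneys with the mean log2 CPM of the members, among 13964 genes with a mean of at least 1 CPM. Thrsp, a regulator of fatty acid synthesis in fat and liver, came first with r = 0.989. It was followed by Lgals12 (0.974), a galectin of lipid droplets, Adig (0.973), an adipocyte membrane protein, Adrb3 (0.968), the beta-3 adrenergic receptor, and Mrap (0.958), an accessory protein of melanocortin receptors. Next came Orm1 (0.954), an acute-phase plasma protein, Klb (0.952), the coreceptor of FGF21, and Rbp4 (0.95), the retinol carrier. Pnpla3, a lipase of lipid droplets, had r = 0.945. Thrsp read 90.3, 6.61 and 127.8 CPM in Ctr, 2.64, 5.79, 216.9 and 137.6 CPM in Lpr, and 2.68, 36.7, 4.64 and 15.9 CPM in DNase. Within each group its kidneys had the order of Adipoq, which not all members share. In all, 23 genes had r of 0.9 or more, and 10 of the 30 most alike were on the adipocyte or brown fat lists. Of the 10 most alike genes, 4 remained without Lpr 3 and 6 without DNase 1.

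A list of other adipocyte genes, of which 33 were in the table, held 13 genes with r of 0.8 or more (39.4%), against 0.594% of all genes ranked. The brown fat list held 4 of 12 (33.3%). These shares are not on the basis of the ranking, which kept only genes with a mean of at least 1 CPM. Of the 4 brown fat genes only Cidea, at 9.10 CPM, reached that mean. The adipocyte count includes a gene with a mean of 0.631 CPM. Between the highest and lowest kidney of a group, Adig had the largest fold of the adipocyte list, 780.7 in Lpr with an exact 95% counting interval of 139.7 to 30880, since its lowest kidney held 1 count. Dgat2, which completes triglyceride synthesis, had the smallest, 1.02 in Ctr, with 1.56 in Lpr and 1.27 in DNase. Scd1, the stearoyl-CoA desaturase, had the highest mean of the list, 1579 CPM, with folds of 2.30 to 2.92. Cidea had the largest fold of the brown fat list, 185 in Lpr, and Ppargc1a, a coactivator of mitochondrial genes that many tissues express, had its highest mean, 80.9 CPM. The folds of Ppargc1a were 1.16 in Ctr, 3.05 in Lpr and 1.09 in DNase, the last being the smallest of the list.

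Among the marker lists of other tissues, only that of the urothelium held genes with r of 0.8 or more. The urothelium list held 4 of 6 genes with r of 0.8 or more, the uroplakins Upk1a, Upk1b, Upk2 and Upk3a, which form the surface plaques of the lining of the renal pelvis and bladder. Its summed level was 71.3, 11.0 and 113.8 CPM in Ctr, 6.95, 36.6, 79.5 and 103.9 CPM in Lpr, and 26.4, 28.5, 7.00 and 18.0 CPM in DNase. Ctr 3, Lpr 4, Lpr 3 and Ctr 1 were the highest kidneys. DNase 1 was close to DNase 2 in this sum, although the members had their lowest mean log2 CPM in DNase 1. No gene of the list was at 0 in any kidney. None of the 15 skeletal muscle genes, 7 mesothelium and fibroblast genes, 8 endothelial genes, 8 macrophage genes, 6 T and B cell genes or 11 kidney genes had r of 0.8 or more. The macrophage list ran from 157.1 to 221.9 CPM in Ctr, 984.4 to 1988 CPM in Lpr and 741.6 to 1438 CPM in DNase, with r of -0.43 to -0.27 for its genes. Adrenal markers summed to 0.511 to 7.59 CPM, with 2 to 8 of 11 genes at 0. The highest sum was in Lpr 2, where Chga read 6.18 CPM. Pancreas markers summed to 50.2 to 143.7 CPM, with Cela1 alone at 50.2 to 143.6 CPM, and 3 to 5 of 6 genes were at 0. The part of the pelvis and of other tissue in the members' values was not tested.

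**Figure D4:**
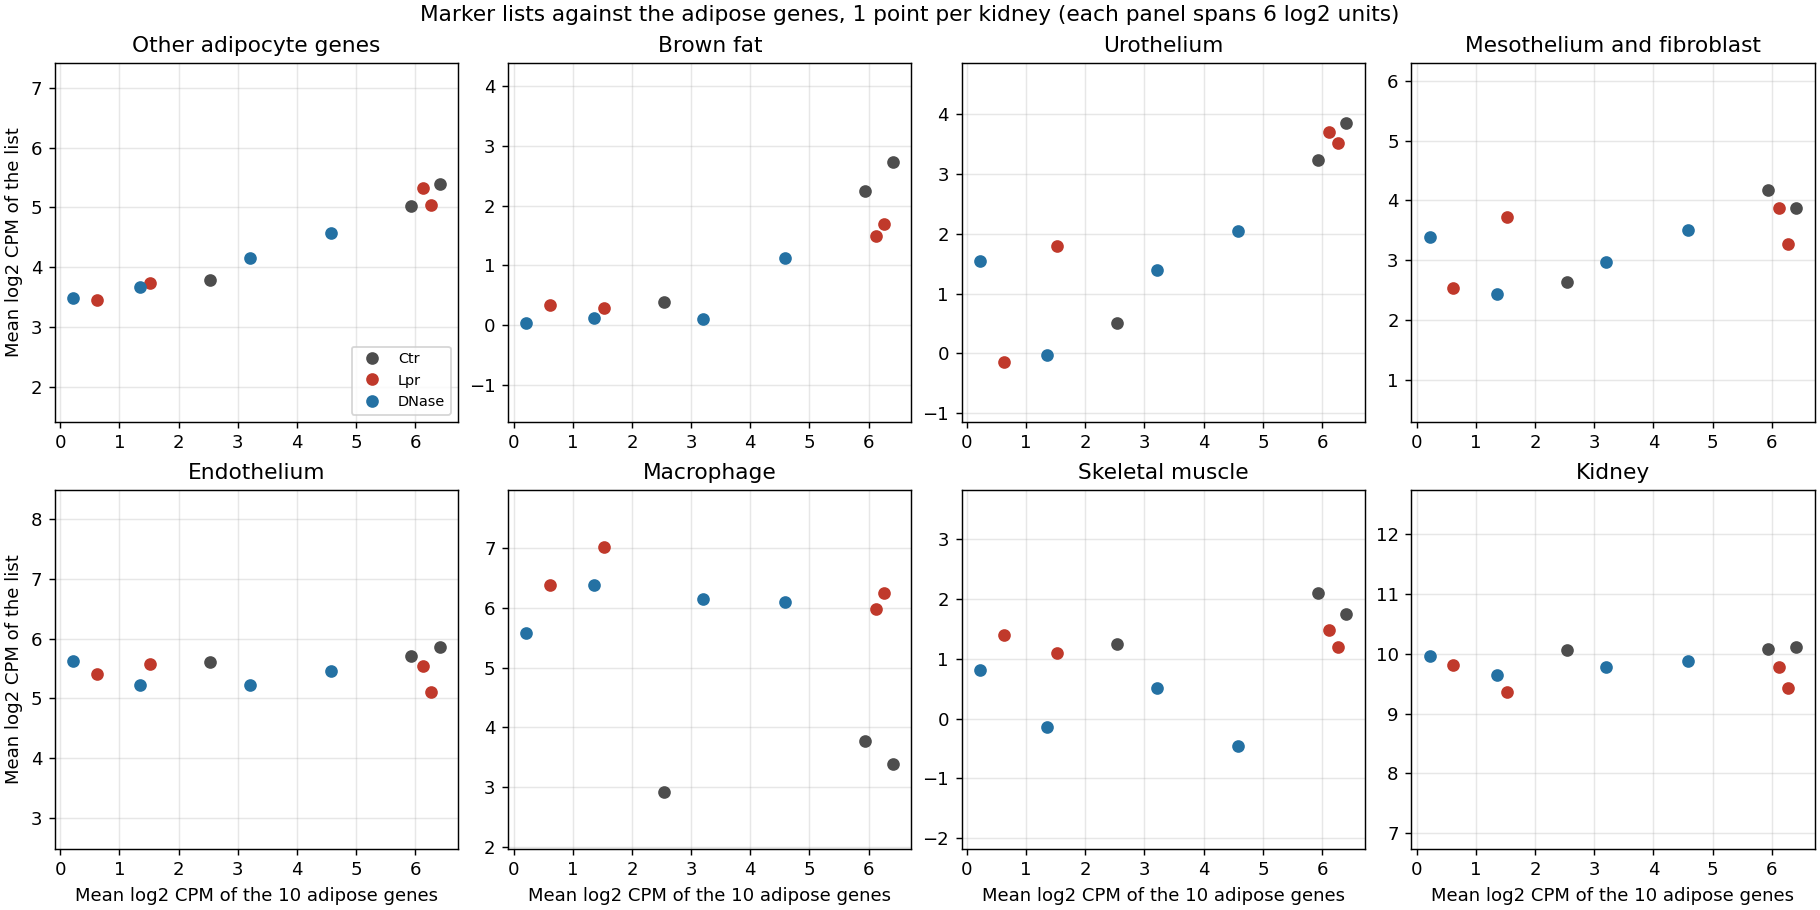
Mean log2 CPM of 8 marker lists against the mean log2 CPM of the 10 adipose genes, 1 point per kidney coloured by group, with 6 log2 units on each vertical axis. The other adipocyte genes, the brown fat genes and the urothelium genes rise with the members, while the macrophage genes divide by group and the kidney genes stay between 9.36 and 10.1.

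Differences between the groups were read from edgeR's quasi-likelihood fits over all genes, where a call needed an adjusted p below 0.05 and a log2 fold change beyond 2 in either direction. The 3 comparisons share groups, so their values are not independent. Between Lpr and Ctr, which asks about the diseased strain against the healthy one, 10 members were tested and 0 were called, while 5.78% of 16074 genes were called. Members without overlap between the groups numbered 0, against 25.6% of all genes, and 0 had an unadjusted p under 0.05. DESeq2 also called 0. The log2 fold changes ran from -3.37 for Ucp1 (SE 1.75, adjusted p = 0.324 from edgeR) to 0.37 for Lep, with a median of -0.15 against 0.03 over all genes. Adipoq averaged 34.1 ± 38.2 CPM (SD, n = 4) in Lpr and 39.6 ± 35.1 CPM (SD, n = 3) in Ctr. Cfd averaged 302.4 ± 392.6 CPM (SD, n = 4) in Lpr and 280.2 ± 288.2 CPM (SD, n = 3) in Ctr, so the SD between kidneys was about as large as the mean. The median SE of a member's log2 fold change was 1.40, against 0.278 over all genes. Without Lpr 3 the median over members was -0.85, and without Ctr 3 it was 0.39, so its sign depended on which kidneys were present.

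Between DNase and Lpr, the comparison that asks about the treatment, 8 members were tested, since Lep and Ucp1 did not pass the filter on low counts, and 0 were called, as were 0% of 15832 genes. Members without overlap numbered 0, against 3.79% of all genes. DESeq2 called 0 members as well. Of the 8, 7 had a negative log2 fold change, between -2.60 for Cfd and -1.70 for Fabp4, and Lpl had 0.06, with a median of -1.92 against -0.02 over all genes. Fabp4 averaged 56.4 ± 28.8 CPM (SD, n = 4) in DNase, against 183.8 ± 181.5 CPM (SD, n = 4) in Lpr, and was the 1 member with an unadjusted p under 0.05, with an SE of 0.754 and an adjusted p of 0.854 from edgeR. Adipoq averaged 7.36 ± 8.16 CPM (SD, n = 4) in DNase, and its log2 fold change of -2.21 (SE 1.39, adjusted p = 0.854 from edgeR) did not pass the test. DNase 2 and DNase 4 exceeded Lpr 1 and Lpr 2 in Adipoq. Without Lpr 3 the median over the members was -1.37, and without DNase 2 it was -3.06.

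Between DNase and Ctr, which differ in strain and in treatment, 9 members were tested, and 1 was called, Ucp1, against 6.01% of 16100 genes. Members without overlap numbered 0, against 31.9% of all genes. Ucp1 averaged 1.14 ± 2.16 CPM (SD, n = 4) in DNase against 70.3 ± 74.5 CPM (SD, n = 3) in Ctr and fell by 5.97 on the log2 scale (SE 1.54, adjusted p = 0.0218 from edgeR). The groups overlapped, because DNase 2, at 4.37 CPM, exceeded Ctr 2, at 0.798 CPM. The call was lost without Ctr 1 (adjusted p = 0.0501 from edgeR), without Ctr 3 (0.0778), without DNase 3 (0.0534) and without DNase 4 (0.0627), and in the fit of all 3 groups (0.0832). DESeq2 called Ucp1 and Lep. An unadjusted p under 0.05 was found for Ucp1, Fabp4 and Cidec, 3 of 9 members, against 33.5% of all genes. The other 8 members tested had log2 fold changes from -2.65 for Cidec to -0.22 for Lpl and adjusted p of 0.0941 to 0.526 from edgeR. Without Ctr 2, Fabp4 was called as well, with a log2 fold change of -2.02 and an adjusted p of 0.00616 from edgeR.

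**Figure D5:**
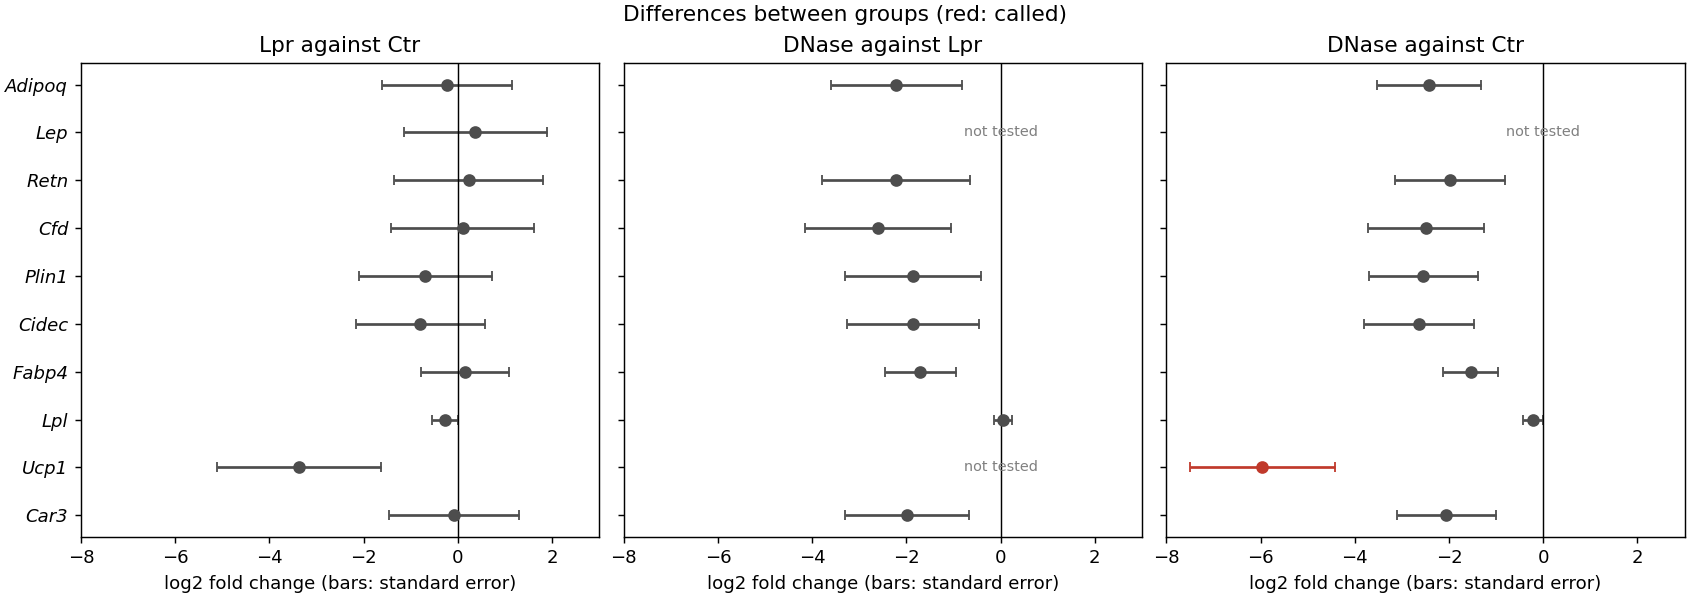
Log2 fold change of each member in the 3 comparisons, with bars of 1 standard error and red for the called gene. In Lpr against Ctr most bars cross 0, most points lie near -2 in both comparisons of DNase, and Ucp1 lies at -5.97 in DNase against Ctr.

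The other adipose genes were read from the same fits. In the adipocyte list, 0 of 33 genes were called between Lpr and Ctr, 0 of 32 between DNase and Lpr, and 1 of 33 between DNase and Ctr, where 4, 2 and 19 had an unadjusted p under 0.05, against 21.4%, 5.60% and 33.5% of all genes. The median log2 fold changes of the list were -0.29, -0.36 and -0.66. The called gene was Lgals12, which fell by 2.50 on the log2 scale in DNase against Ctr (SE 0.681, adjusted p = 0.0284 from edgeR), and its adjusted p rose to 0.0602 without Ctr 1, 0.123 without Ctr 3, 0.0546 without DNase 1, 0.0734 without DNase 3 and 0.0665 without DNase 4. In the brown fat list, 0 of 10, 0 of 6 and 2 of 10 genes were called, with medians of -0.76, -0.24 and -1.50. Elovl3 fell by 4.66 on the log2 scale (SE 1.12, adjusted p = 0.0160 from edgeR) in DNase against Ctr, and the call was lost without Ctr 1 (0.0561) and without DNase 4 (0.0519). Otop1 fell by 4.84 (SE 1.48, adjusted p = 0.0456 from edgeR), and DESeq2 did not call it (adjusted p = 0.379). The Otop1 call was also lost without Ctr 1 (0.0786), Ctr 3 (0.202), DNase 1 (0.0884), DNase 3 (0.102) or DNase 4 (0.113). Both calls had groups that overlapped, since DNase 2 held 13 counts of Elovl3 and 12 of Otop1 where Ctr 2 held 3 and 0. Of the urothelium genes, 0 of 6 were called in any comparison, with medians of -0.31, -1.38 and -1.70, which had the same sign as those of the members. In DNase against Ctr, where 6.01% of all genes were called, 8 of 15 skeletal muscle genes were called lower. There 6 of 8 macrophage genes and 6 of 6 T and B cell genes were called higher. In Lpr against Ctr, where 5.78% of all genes were called, 7 of 8 macrophage genes and 4 of 6 T and B cell genes were called higher. There 0 of 15 muscle genes were called. Of the mesothelium and fibroblast, endothelium, adrenal, pancreas and kidney lists, 0 genes were called in any comparison. In DNase against Ctr, 1 of 7 mesothelium and fibroblast genes, 4 of 8 endothelial genes and 5 of 11 kidney genes had an unadjusted p under 0.05 in edgeR, against 33.5% of all genes. Of the muscle genes, 14 of 15 had such a p in DNase against Ctr, 11 of 15 in DNase against Lpr and 4 of 15 in Lpr against Ctr. All genes had 33.5%, 5.60% and 21.4% in the same order. The muscle counts take either direction. Pvalb and Eno3 were among them but higher in DNase against Ctr, by 1.317 and 0.613 on the log2 scale. In Lpr against Ctr they were also among them and higher, by 1.355 and 0.678. The muscle median in DNase against Lpr was -1.11, with 0 called. In the order DNase against Ctr, DNase against Lpr and Lpr against Ctr, such a p was found for 5 of 10, 2 of 6 and 1 of 10 brown fat genes. For urothelium it was 4 of 6, 1 of 6 and 0 of 6.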

How the data were processed

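Kidney RNA of 11 mice was sequenced with 1 library per mouse, and groups were taken from the titles of the samples. The authors deposited raw gene counts, with HTSeq named in their methods for aligning reads to genes, and FPKM values, scaled by gene length and library total. Their processing notes also name fastp and mm10. Columns left unused numbered 0.

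Counts were compared in pairs of groups with edgeR 4.0.16 (filterByExpr, TMM, quasi-likelihood test, Benjamini-Hochberg over all genes tested) in R 4.3.3. DESeq2 1.42.0, the authors' tool, and limma 3.58.1 (log2 FPKM after adding a pseudocount of 1 or 0.1, mean FPKM 0.5 or above) were alternatives, beside other size factors, no filter, a joint fit, a robust fit, the replicate number as a block and each library left out. The procedure was tested on simulated data. The SE is the log2 fold change divided by the root of F. Log2 CPM used a prior count of 2.

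The 10 genes and the marker lists were chosen with earlier results of these data known. Named genes were the members, the 10 genes most like them, and of the adipocyte and brown fat lists those called, those with the largest and smallest fold within a group and the most abundant. Of the genes most like the members, 1 is not reported here. Other lists are given as counts, and Upk genes, kidney genes, Pvalb, Eno3, Chga and Cela1 were named after their values were seen. Replicates were separate mice per the study's design. Between kidneys of a group, chi-square divided by its degrees of freedom was 16.5 to 366, so no 2 libraries agreed within sampling noise. Gene positions came from GENCODE on mm10.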

Additional observations from a re-analysis of the deposited data

Results flagged for a closer look

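Ucp1 in DNase 2, at 4.37 CPM, lay far above the other 3 kidneys of its group, which held 0 to 0.138 CPM. The genes were picked for such differences between kidneys of a group, so this value is a description with no test. DNase 2 was also the highest DNase kidney for the other 9 adipose genes.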

How the results depend on the processing

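In Lpr against Ctr the number of members called was 0 except with the replicate number as a block, where it was 1, Ucp1 (-5.14, adjusted p = 0.0350 from edgeR). The block fit kept only replicate numbers present in both groups. It therefore also lacked Lpr 4 in that comparison and DNase 4 in DNase against Ctr. Without Lpr 4 and with no block, 0 members were called. In DNase against Ctr the number called was 2 with DESeq2, 0 with all 3 groups in 1 fit, 0 with the block, 0 with the robust fit and 0 with limma at either pseudocount, and 0 to 2 with 1 kidney left out. In DNase against Lpr it was 0 throughout. Ucp1 in DNase against Ctr was -5.95 in the joint fit, -5.83 with the block (adjusted p = 0.309), -5.97 in the robust fit (0.0975), and -3.57 and -5.39 with limma. The calls of other adipose genes in DNase against Ctr were lost too: Elovl3 with the block (adjusted p = 0.252 from edgeR) and with limma (0.0698 and 0.0826), Lgals12 in the joint fit (0.123), with the block (0.192), in the robust fit (0.0541) and with limma (0.0828 and 0.0744), and Otop1 in the joint fit (0.0917), with the block (0.395) and in the robust fit (0.101). The replicate numbers did not pair the kidneys: same-numbered kidneys had correlations of -0.28 to 0.16, with 1 of 10 above 0.1. In Lpr against Ctr, Retn reversed to -1.68 with the block and to -0.62 and -1.25 with limma at pseudocounts of 1 and 0.1, Cfd to -1.43, -0.98 and -1.04, and Fabp4 to -0.44, -0.11 and -0.12. The cause was not tested. With 1 kidney left out, log2 fold changes in Lpr against Ctr ran from -0.92 to 0.59 for Adipoq, -0.10 to 2.62 for Lep, -0.85 to 0.86 for Retn, -1.18 to 1.27 for Cfd, -1.94 to 0.024 for Plin1, -1.50 to 0.19 for Cidec, -0.61 to 0.82 for Fabp4, -0.45 to 0.06 for Lpl and -0.70 to 0.85 for Car3. For Lep the range covers 5 removals, since without Lpr 3 or without Lpr 4 Lep did not pass the filter on low counts. Lpl ran from -0.079 to 0.169 in DNase against Lpr and from -0.40 to 0.11 in DNase against Ctr. Ucp1 in DNase against Ctr ran from -10.09 to -4.79 and Fabp4 from -2.02 to -0.90. Of the 10 genes most like the members, 4 to 9 remained with 1 kidney left out. Of 561 alternative values, 505 were rated the same. For log2 fold changes this meant the same direction and side of the threshold. For counts of genes it meant an equal or similar number. For folds between kidneys it meant a change smaller than the SD of log2 CPM in the group. Spread between kidneys, more than depth, limits these values, except for Lep and low Ucp1, which rest on few counts. Few counts also underlie Retn in Lpr 1 (4) and, in DNase 1, Retn (3), Plin1 (3), Cidec (8) and Adipoq (10).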

Other observations

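Further genes followed the 10 adipose genes over the 11 kidneys. Tkt, a transketolase of the pentose phosphate pathway, had r = 0.932 with a range of only 256.7 to 517.5 CPM. Nat8l, which makes N-acetylaspartate and is expressed in brown fat, had r = 0.941 and ranged from 0.128 to 12.0 CPM. Fasn, the fatty acid synthase and a gene of the adipocyte list, had r = 0.885 and ranged from 86.9 to 1180 CPM. Aoc3, an amine oxidase of adipocytes and smooth muscle, had r = 0.927 and ranged from 2.08 to 21.7 CPM. These genes were picked after their values were seen, and r was not tested.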
